A study of Arabidopsis thaliana with 6 samples.

Results

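Plastids keep a small genome of their own, written with locus names of the ATCG form, which encodes core subunits of the photosynthetic complexes and part of the machinery that expresses them. The transcripts described here are those of its protein-coding genes, chosen as the probe sets whose single Entrez Gene entry lies on the plastid genome, with the brightest probe set standing for a gene. This gave 71 of the 20242 Arabidopsis thaliana genes with a single-gene probe set, and none of the 71 had more than 1 such probe set. Tests ran over all 22746 probe sets other than controls. They comprise 5 psa genes (photosystem I), 15 psb (photosystem II), 6 pet (cytochrome b6f complex), 6 atp (ATP synthase), 10 ndh (NADH dehydrogenase-like complex), 4 rpo (RNA polymerase), 17 rps or rpl (ribosome), rbcL, and 7 others (accD, clpP, matK, ycf3, ycf4, cemA and ccsA). The reference table lists 78 plastid protein-coding gene names, and the remaining 7 (rps12, rpl2, rpl23, rps7, ndhB, ycf1 and ycf2) were read only by 8 probe sets that carry both reference entries of their gene.

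The series asked how heat stress changes the transcriptome of Arabidopsis seedlings and how light and temperature signals interact. The heat group consists of 3 arrays from Col-0 seedlings given 30 min at 37 °C in the dark, and the control group of 3 arrays from Col-0 seedlings kept in darkness without heat. All came from plants raised on solid medium at 23 °C under 16 h of light and 8 h of darkness after 72 h at 4 °C, and the length of the dark period before sampling is not given in the labels. The design text gives an age of 10 days, whereas the labels of the heat arrays read 19, 20 and 21 days and those of the control arrays 16, 17 and 18 days. Age as labelled and heat therefore run together. Samples in light, which the design text also names, were not analysed here. Neither the number of plants per array nor separate growth is stated, so p-values cover the spread among these arrays alone, and that spread may be technical.

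Most plastid genes are transcribed in multi-gene units by a bacterial-type polymerase (PEP), whose core is encoded by the rpo genes and which needs sigma factors made in the nucleus. A phage-type polymerase encoded in the nucleus (NEP) reads some housekeeping genes. Transcripts are then cut, edited and protected at their ends by nuclear-encoded RNA-binding proteins, and steady-state levels in the chloroplast depend strongly on RNA stability. Plastid messengers mostly lack long poly(A) tails, and short tails mark RNA for decay. The labels name only the standard Affymetrix labelling, which in its usual form primes from poly(A), so a value reports the plastid RNA that was labelled and not necessarily the whole pool.

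The labels of heat were borne out by the arrays, since HSP101, a disaggregase of the cytosol, read 11.03, 11.13 and 10.90 on the heat arrays and 2.96, 2.30 and 3.24 on the control arrays (log2). HSP17.6A and HSFA2, a small heat shock protein and a heat stress transcription factor, were higher by 9.08 and 7.64. Carbonic anhydrase CA1 and Rubisco activase RCA, markers of green tissue, stood at 11.25 to 11.58 on the heat arrays and 11.31 to 11.61 on the control arrays. Of 5 root markers, 1 passed the test: PYK10, a root beta-glucosidase, was lower by 1.17 (SE 0.24, limma adjusted p = 0.0287), a call that held in 1 of the 6 fits leaving out an array. The summed signal of the root list, 8.93 to 9.43 on the heat arrays and 9.90 to 10.78 on the control arrays on the log2 scale, was nearly all PYK10. The median difference of the list was -0.02, with 2 markers above and 3 below 0. IRT1, a root iron transporter, differed by -0.38 (SE 0.66) with overlapping groups. NRT2.1, EXPA7 and COBL9 lay between 2.30 and 2.94, near the array medians of 2.78 to 2.94. The log2 value of the actin 3′ control probe set minus that of its 5′ probe set was 3.25 to 3.52 on the heat arrays and 3.52 to 4.19 on the control arrays. For the GAPDH controls it was 0.91 to 1.15 on the heat arrays and 0.97 to 1.40 on the control arrays. For the ubiquitin controls it was 1.71 to 1.82 on the heat arrays and 1.59 to 1.79 on the control arrays. The part of root content or RNA quality in the differences below was not tested.

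After 30 min of heat, 2 of the 71 genes passed the test, rbcL with a lower and psaA with a higher level, a share of 2.82% set beside 6.34% of all tested probe sets. The sizes of the differences were close to those of the whole array, with a median absolute log2 difference of 0.17 over the plastid genes and 0.18 over all probe sets. The median log2 difference, heat minus control, was -0.0028 over the plastid genes and -0.0107 over all probe sets. Plastid probe sets were bright, with 61 of the 71 above the array median and 53 above the 75th percentile on every array. With dim probe sets filtered out at the median, the median difference was -0.0016 over 66 plastid genes and -0.146 over 11631 probe sets. Sizes were not compared among probe sets of like brightness. None of the 71 genes differed by 1 or more on the log2 scale, and 3.99% of all probe sets did. Outside the 71, 1 of the shared probe sets of rps12 was higher by 1.19 (SE 0.17, limma adjusted p = 0.00625). The 95% interval of the difference lay wholly within 1 log2 unit of 0 for 62 of the 71 genes (87.3%, and 86.4% of all probe sets). The exceptions were rbcL, psaA, psaJ, petN, matK, rps18, atpI, ndhE and rps16. In whole seedlings, fewer plastids or cells and less RNA per plastid cannot be told apart.

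**Figure D1:**
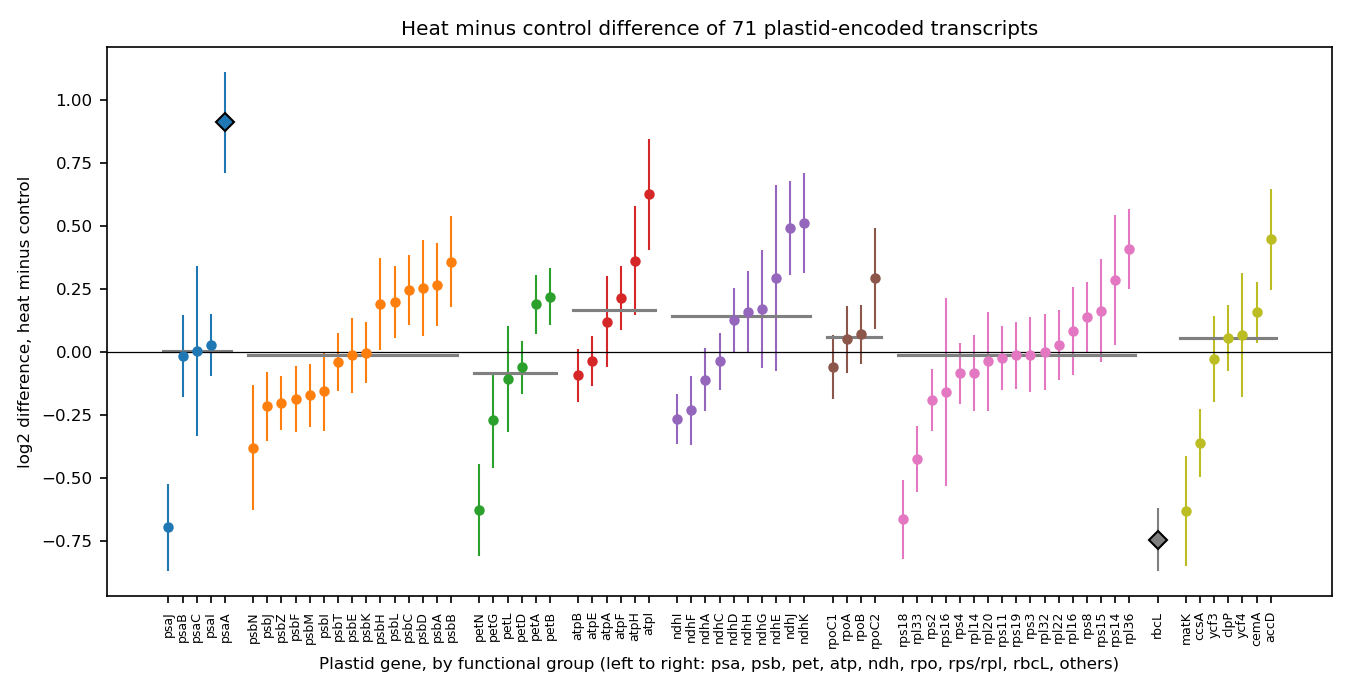
Each point is the log2 difference (vertical axis, heat minus control) of 1 plastid gene, with limma's standard error as a bar, grouped along the horizontal axis by function; grey lines are group medians and diamonds outlined in black are the 2 genes past the threshold. The points scatter on both sides of 0 in every group of more than 1 gene, and psaA (0.91) and rbcL (-0.74) lie farthest out.

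The heat and control arrays did not overlap for 13 of the 71 genes, 4 higher and 9 lower after heat. Those counts correspond to 18.3% of the genes in all, and the background over all probe sets was 26.3% in all, 10.4% higher and 15.8% lower. The 4 higher were psaA, ndhJ, petB and rpl36, and the 9 lower were rbcL, psaJ, rps18, rpl33, petN, matK, ccsA, ndhI and psbZ. Unadjusted p lay under 0.05 for 13 genes as well, against 21.4% of all probe sets: 2 psa, 1 pet, 1 atp, 3 ndh and 3 ribosomal genes, rbcL and 2 others, with 0 psb and 0 rpo genes. Correlations across the plastid genes were 0.993 to 0.995 between heat arrays, 0.989 to 0.995 between control arrays and 0.985 to 0.993 between groups. The control arrays spread slightly more, with a median SD over genes of 0.15 on the heat arrays and 0.20 on the control arrays. Over all probe sets these medians were 0.14 and 0.18. Control replicate 1 was the lowest of its group for 40 of the 71 genes, and control replicates 2 and 3 were each the highest for 31. Control replicates 1, 2 and 3 were highest or lowest for 67.6, 71.8 and 59.2% of the plastid genes. Over all probe sets the shares were 56.8, 78.8 and 63.5%.

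Rubisco's large subunit, the product of rbcL, carries the catalytic site of carbon fixation. The transcript read 8.02, 8.01 and 8.07 on the heat arrays and 8.60, 8.76 and 8.97 on the control arrays. Every heat array lay below every control array, and the heat arrays were the tighter group. It fell to 8.03 ± 0.03 in heated seedlings, against 8.78 ± 0.19 in controls (SD, n = 3 arrays each), a difference of -0.74 (SE 0.12, 95% interval -1.04 to -0.45, limma adjusted p = 0.0137), or 59.7% of the control level. The call ended without any 1 of the 3 heat arrays (adjusted p 0.0622 to 0.0654) and with the replicate block (0.0536) or labelled age (-1.06, adjusted p = 0.296), while the difference itself stayed between -0.83 and -0.65 over the single arrays left out. The gene's neighbours on the genome gave other values: atpB differed by -0.09 (SE 0.10) and accD by 0.45 (SE 0.20, adjusted p = 0.255), and neither passed. The small subunit is encoded by nuclear RBCS genes, which had no single-gene probe set here. RCA, which keeps Rubisco active, read 11.47 ± 0.10 in heated seedlings and 11.53 ± 0.0009 in controls (adjusted p = 0.783).

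Photosystem I uses light to reduce ferredoxin, and its reaction centre is built of the psaA and psaB products. Transcripts of psaA rose, with 4.09, 4.12 and 4.06 on the heat arrays and 3.47, 3.35 and 2.70 on the control arrays. The heat values were nearly equal and the control values were not, control replicate 3 being lowest. The probe set was dim on the control arrays, whose medians were 2.84 to 2.94, and on replicate 3 it lay below the array median. The difference was 0.91 (SE 0.20, 95% interval 0.45 to 1.38, limma adjusted p = 0.0382), a linear ratio of 1.88. It was 0.67 without control replicate 3 and kept its call (0.0326), whereas leaving out any heat array ended the call (0.125 to 0.136), as did the replicate block (0.0709) and labelled age (1.51, 0.32). The partner gene psaB read 9.98, 10.03 and 10.32 on the heat arrays and 10.42, 9.98 and 9.97 on the control arrays, with the groups overlapping (-0.02, SE 0.16). Its sign turned under median centring of the arrays and under cyclic loess. The psaC and psaI genes, for a ferredoxin-docking and a small membrane subunit, differed by 0.0046 (SE 0.34) and 0.03 (SE 0.12). Another small subunit gene, psaJ, read 6.64, 6.77 and 6.23 on the heat arrays and 7.01, 7.30 and 7.40 on the control arrays. All heat arrays were below all control arrays, but the difference of -0.695 (SE 0.17) missed the threshold (adjusted p = 0.0599). It passed under quantile normalization (0.0396), the stricter filter on dim probe sets (0.0437) and the mean-variance trend (0.0468).

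**Figure D2:**
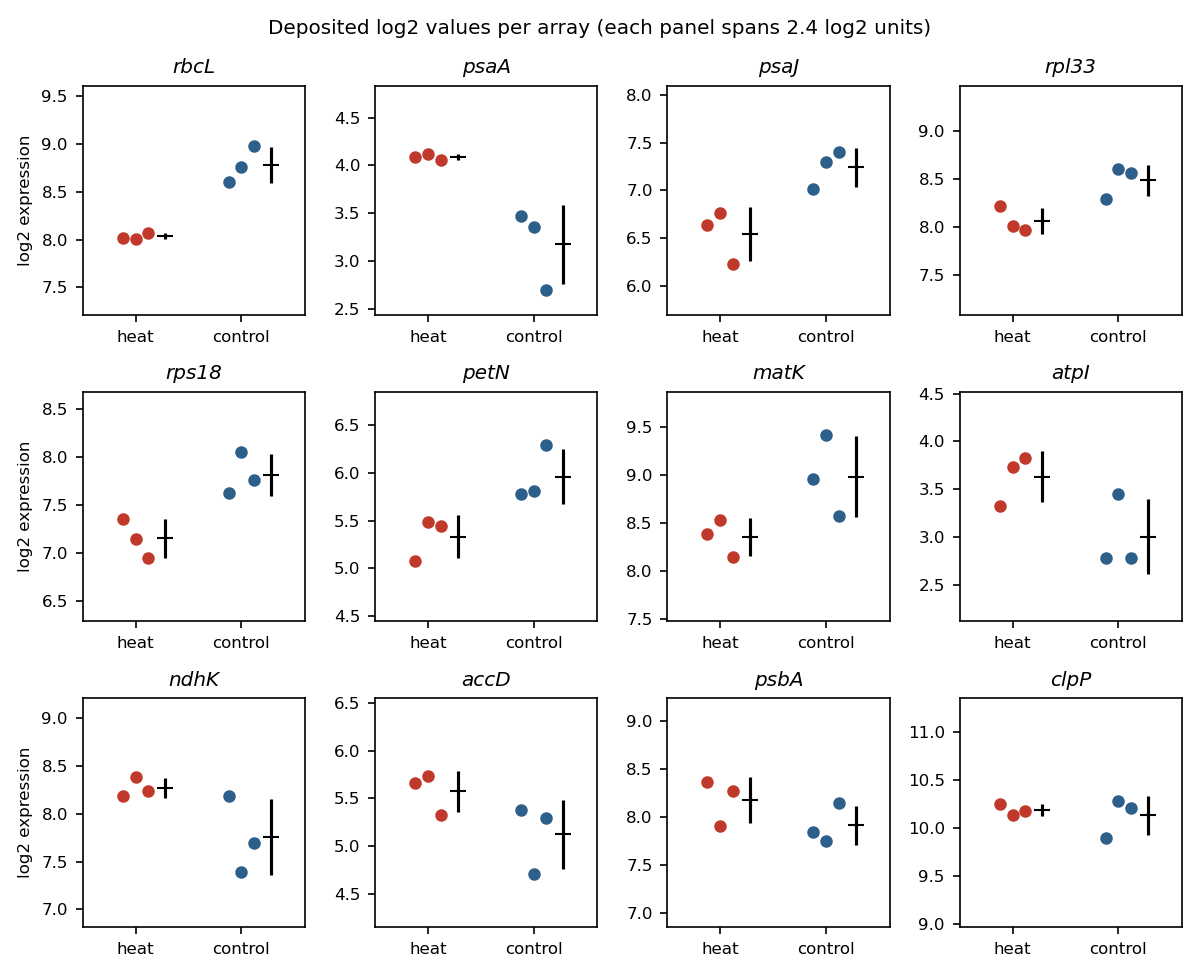
Dots are the deposited log2 values (vertical axis) of 12 plastid genes on each array, with heat on the left and control on the right of each panel; black marks are group means with SD (n = 3) and all panels span the same range. The heat and control dots are separate for rbcL, psaA, psaJ, rpl33, rps18, petN and matK and overlap for atpI, ndhK, accD, psbA and clpP.

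None of the 15 psb genes passed, and their median difference was -0.01 (range -0.38 to 0.36). The psbA gene encodes D1, the reaction-centre protein that is replaced fastest under light. It read 8.37, 7.90 and 8.27 on the heat arrays and 7.84, 7.74 and 8.15 on the control arrays, so the groups overlapped (0.27, SE 0.17, limma adjusted p = 0.403). The psbB gene, for the antenna protein CP47, had the largest positive difference (0.36, SE 0.18, adjusted p = 0.304). The psbN gene, for an assembly factor of the complex, had the largest negative one (-0.38, SE 0.25, adjusted p = 0.428). The psbM gene, for a small subunit and at 11.12 ± 0.17 in heated seedlings and 11.30 ± 0.07 in controls, differed by -0.17 (SE 0.12). The 95% intervals of all 15 genes lay within 1 log2 unit of 0. Of all tested probe sets, 86.4% had such intervals and 6.34% passed the test.

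The cytochrome b6f complex passes electrons between the photosystems. None of its 6 plastid genes passed, and 2 were above and 4 below 0. The petB gene, which encodes cytochrome b6, read 10.18, 10.06 and 10.30 on the heat arrays and 9.87, 9.97 and 10.03 on the control arrays. Its groups just failed to overlap, with a difference of 0.22 (SE 0.11, limma adjusted p = 0.315). The petN gene, for a small subunit, read 5.07, 5.48 and 5.44 on the heat arrays and 5.78, 5.81 and 6.29 on the control arrays, again without overlap. The difference of -0.63 (SE 0.18) had an adjusted p of 0.0934, and of 0.0488 without control replicate 2. Both petD and petG were below the array median on every array, among the dim probe sets of the array.

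ATP synthase makes ATP from the proton gradient, and none of its 6 plastid genes passed. The atpB and atpE transcripts, from adjacent genes for subunits beta and epsilon, read 11.59 ± 0.06 and 11.79 ± 0.06 in heated seedlings and 11.68 ± 0.07 and 11.82 ± 0.02 in controls. Neither differed by more than 0.1 (-0.09, SE 0.10, and -0.03, SE 0.10), and both signs turned under median centring and cyclic loess. The atp genes of another unit, atpI, atpH, atpF and atpA, were all above 0, from 0.12 to 0.63, while rps2 of the same unit stood at -0.19 (SE 0.12). The atpI gene, for a membrane subunit of the proton channel, read 3.33, 3.73 and 3.83 on the heat arrays and 2.78, 3.45 and 2.78 on the control arrays. Control replicate 2 overlapped the heat arrays, and the difference of 0.63 (SE 0.22, limma adjusted p = 0.153) passed only without it (0.85, adjusted p = 0.0146). The median of the 6 atp genes was 0.17, and it moved to 0.28 under median centring and to 0.32 under cyclic loess.

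The NDH complex feeds electrons back into the photosynthetic chain. Its 10 plastid genes had a median difference of 0.14 (range -0.26 to 0.51), with 6 above and 4 below 0 and none past the threshold. Values of ndhK were 8.18, 8.38 and 8.24 on the heat arrays and 8.18, 7.39 and 7.69 on the control arrays (0.51, SE 0.20, limma adjusted p = 0.192). Those of ndhJ were 8.81, 8.80 and 8.66 on the heat arrays and 8.52, 7.84 and 8.43 on the control arrays (0.49, SE 0.19, adjusted p = 0.18). In both genes control replicate 2 was the lowest array, and the differences without it were 0.33 and 0.28. The gene ndhC, transcribed in the same unit, gave -0.04 (SE 0.11), a sign that turned under median centring and cyclic loess. The ndhI gene, for a subunit with iron-sulfur clusters, read 11.29, 11.22 and 11.23 on the heat arrays and 11.49, 11.56 and 11.50 on the control arrays. Those groups did not overlap, yet the difference of -0.26 (SE 0.10) passed only with a mean-variance trend in the moderation (adjusted p = 0.0458, and 0.174 without the trend). The ndhF probe set lay below the array median on every array (-0.23, SE 0.14).

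None of the polymerase and ribosomal protein genes among the 71 passed, while the shared rps12 probe set named above did. The 4 polymerase genes had a median of 0.06, from rpoC1 at -0.06 (SE 0.13) to rpoC2 at 0.29 (SE 0.20, limma adjusted p = 0.447). The rpoA gene, for the alpha subunit, read 9.33 ± 0.14 in heated seedlings and 9.28 ± 0.16 in controls (SD, n = 3 arrays each). The rpoB gene, below the array median throughout, read 1.81 ± 0.09 in heated seedlings and 1.74 ± 0.13 in controls. The signs of rpoA, rpoB, rpoC1 and rpoC2 each turned under some alternative. Of 17 ribosomal protein genes, 6 were above and 11 below 0 (median -0.01). The rps18 gene of the small subunit came nearest, with 7.35, 7.15 and 6.95 on the heat arrays and 7.63, 8.05 and 7.77 on the control arrays. Its groups did not overlap, and the difference was -0.66 (SE 0.16, adjusted p = 0.0509). Under 5 alternatives it passed (adjusted p 0.0366 to 0.0456): quantile normalization, both filters on dim probe sets, the trend, and without control replicate 2. The rpl36 gene had the largest positive difference (0.41, SE 0.16, adjusted p = 0.192), and it passed only without control replicate 2 (0.58, adjusted p = 0.0138). The brightest ribosomal probe set, rps4, differed by -0.08 (SE 0.12).

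Among the 7 remaining genes none passed. The matK gene, for a maturase that helps to splice plastid introns, read 8.39, 8.53 and 8.14 on the heat arrays and 8.96, 9.42 and 8.58 on the control arrays. The groups did not overlap, though the control arrays spread widely, and the difference was -0.63 (SE 0.22, limma adjusted p = 0.149). The ccsA gene, needed to attach haem to c-type cytochromes, differed by -0.36 (SE 0.13, adjusted p = 0.178). The accD gene, for a subunit of the acetyl-CoA carboxylase that starts fatty acid synthesis, read 5.66, 5.73 and 5.33 on the heat arrays and 5.37, 4.71 and 5.29 on the control arrays, which overlapped. The clpP and ycf3 genes, for a protease subunit and a photosystem I assembly factor, differed by 0.06 (SE 0.13) and -0.03 (SE 0.17), with signs that turned under some alternatives.

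Differences of genes in 1 transcription unit had the same sign in some units and not in others. In psaI-ycf4-cemA-petA all 4 lay above 0 (0.03 to 0.19). In psaA-psaB-rps14 the differences were 0.91, -0.02 and 0.29, and rps14 lay at 2.60 to 3.66 on the heat arrays and 2.57 to 2.95 on the control arrays. The probe sets of psaA and rps14 were far dimmer than that of psaB. The unit petL-petG-psaJ-rpl33-rps18, singled out after its values were seen, had all 5 differences below 0 (-0.11, -0.27, -0.695, -0.42 and -0.66). The rpl33 gene, for a large-subunit ribosomal protein, read 8.21, 8.01 and 7.96 on the heat arrays and 8.29, 8.60 and 8.56 on the control arrays, without overlap (SE 0.13, limma adjusted p = 0.113). None of the 5 genes passed, petL turned its sign under 3 normalizations, and petG was below the array median throughout. The next gene along the genome, rpl20, differed by -0.04 (SE 0.20). Across the 70 pairs of adjacent plastid genes the correlation of differences was 0.11 (Pearson), and 36 pairs had the same sign. Pairs share genes and arrays, so this is only a description. Differences between genes of a unit were not tested.

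**Figure D3:**
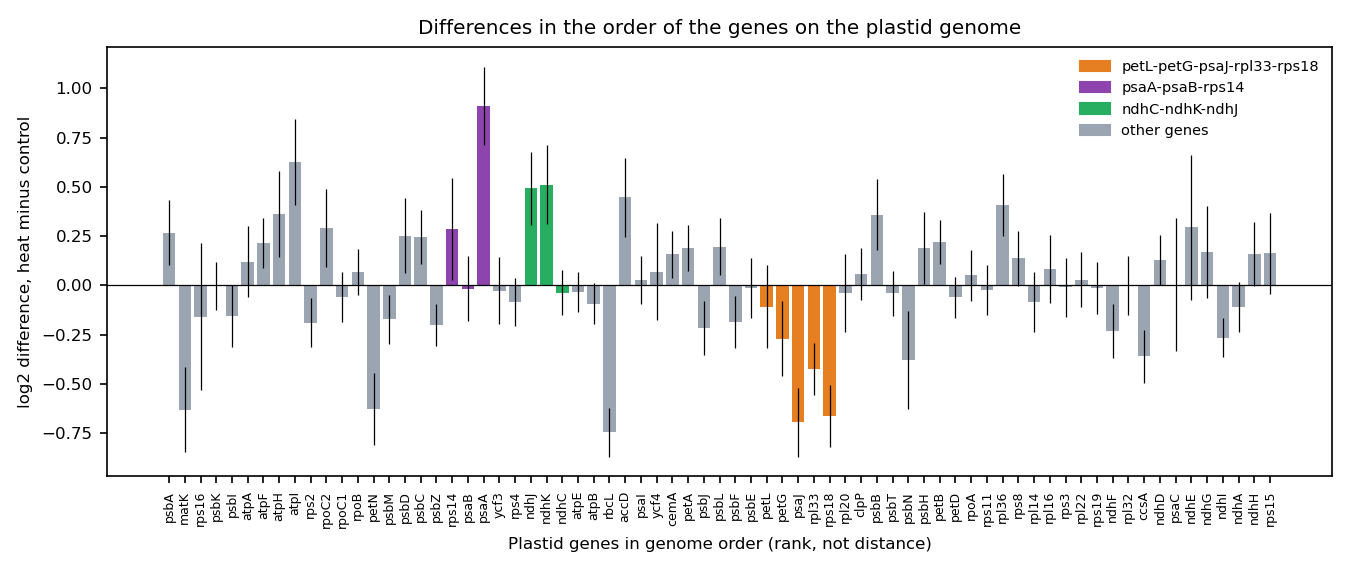
Bars show the log2 difference (vertical axis, heat minus control; error bars are limma's standard errors) of the 71 plastid genes in genome order by rank along the horizontal axis, with 3 transcription units in colour. The 5 genes from petL to rps18 all lie below 0, while psaA (0.91) and psaB (-0.02) of 1 unit differ in height.

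Sorted by polymerase, the 27 photosynthesis genes read mainly by PEP had a median difference of -0.02, including both genes that passed. The 4 single-probe-set genes read mainly by NEP (accD, rpoB, rpoC1 and rpoC2) had a median of 0.18, and none passed. With the shared ycf1 and ycf2 probe sets added, the NEP median was 0.03. The medians of the PEP genes were 7.83, 7.90 and 8.07 on the heat arrays and 7.80, 7.74 and 7.53 on the control arrays. Those of the NEP genes, 5.37, 5.46 and 5.15 on the heat arrays and 5.14, 4.98 and 5.23 on the control arrays, overlapped. Those of the PEP genes did not overlap, although the median of their differences was below 0. The medians over all 71 genes did not overlap either, at 7.83, 7.90 and 7.96 on the heat arrays and 7.80, 7.74 and 7.69 on the control arrays. Such a median is the value of the gene at mid-rank on that array. The summed signal of the 71 genes overlapped, at 14.89, 14.80 and 14.85 on the heat arrays and 14.85, 14.98 and 14.91 on the control arrays (log2). Of the 71 differences, 34 lay above and 37 below 0. Medians by array of the atp and ndh groups were also higher on every heat array, and those of psa, rbcL and all tested probe sets were lower. The psa median was the psaJ value on every array. The median of the 5 psa differences was 0.0046, with 3 above and 2 below 0.

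Nuclear genes for plastid gene expression gave 1 call among 37 measured, a share of 2.70% set beside 6.34% of all tested probe sets. Of 6 sigma factors none passed, and their differences ran from -0.38 to -0.0032. SIG1 read 5.78, 5.47 and 5.62 on the heat arrays and 6.10, 5.93 and 5.99 on the control arrays, which did not overlap (-0.38, SE 0.12, limma adjusted p = 0.121). SIG2 differed by -0.22 (SE 0.18). SIG5, a sigma factor known to respond to light and stress, read 2.06 ± 0.15 in heated seedlings and 2.06 ± 0.28 in controls, and its sign turned under median centring. RPOTp, the plastid phage-type polymerase, differed by -0.21 (SE 0.20), and none of 3 organelle phage-type polymerases passed. None of 12 measured PEP-associated proteins passed either (median -0.23). Of 16 measured RNA stability and processing genes 1 fell (6.25%, near the share over all probe sets), PGR3. PGR3 is a pentatricopeptide-repeat protein known to bind and stabilise RNA of the petL unit. It read 3.34, 2.74 and 2.49 on the heat arrays and 4.20, 4.31 and 4.68 on the control arrays. On heat replicates 2 and 3 the probe set was dim, below the array medians of 2.78 and 2.81. All heat arrays were below all control arrays (-1.54, SE 0.23, adjusted p = 0.00853). The gene did not pass without heat replicate 2 (adjusted p = 0.0525) or with labelled age as a covariate (-1.26, 0.84). Whether the level of PGR3 bears on that of the petL unit was not tested.

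None of the 77 measured nuclear-encoded partners in the same complexes passed by limma (3 had an unadjusted p under 0.05), and their median difference was 0.02 (range -0.37 to 0.54). By complex the medians were 0.06 for psa, 0.04 for psb, -0.11 for pet, -0.15 for atp, 0.06 for ndh, -0.0033 for ribosomal proteins, 0.08 for Clp subunits and 0.20 for acetyl-CoA carboxylase. The plastid-encoded medians for the first 6 of these were 0.0046, -0.01, -0.08, 0.17, 0.14 and -0.01. The atp medians had opposite signs, and this difference was not tested. Over all 114 nuclear genes measured in these lists 0 rose and 1 fell by limma (12 had an unadjusted p under 0.05), while 2.34% of all probe sets rose and 4% fell. The unadjusted p of limma lay under 0.05 for 21.4% of all probe sets.

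**Figure D4:**
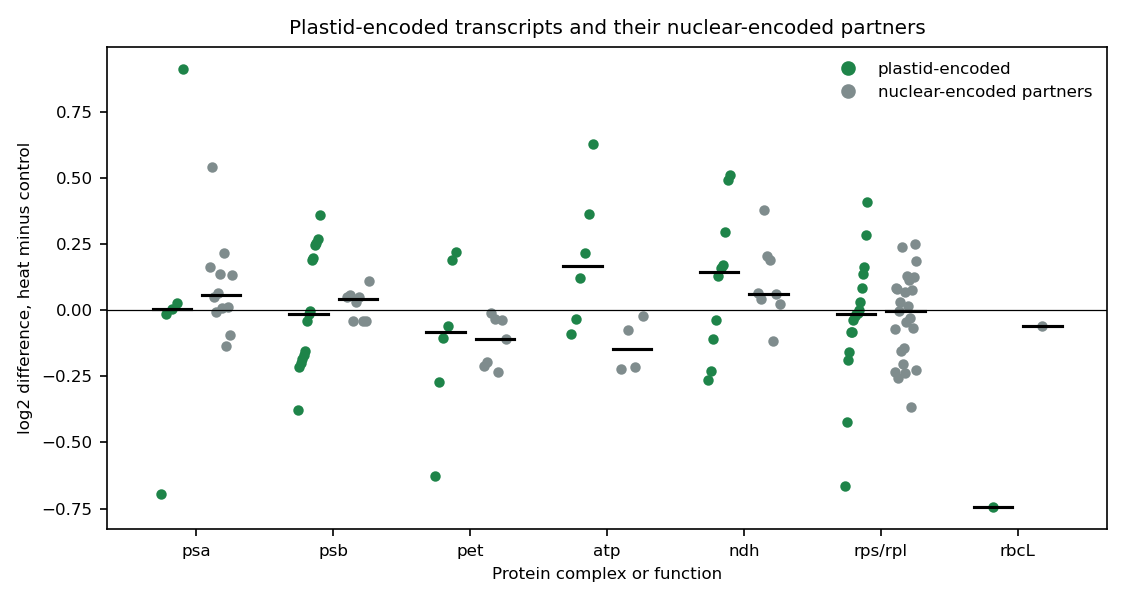
Dots are log2 differences (vertical axis, heat minus control) of plastid-encoded genes (green) and their nuclear-encoded partners (grey) by complex; black lines are medians. The plastid genes reach from -0.74 (rbcL) to 0.91 (psaA), and the nuclear partners from -0.37 to 0.54.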

How the data were processed

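Total RNA from 6 seedling samples was hybridised to Affymetrix arrays. The authors deposited log2 values per probe set in 2 tables that were identical (largest gap 0). RMA, a probe-level summary, is the tool that the submitters' processing notes name; no version of it is given in the sources used here. Arrays carry no read depth, and the precision of a value depends on the number of arrays and on the spread of that probe set among them.

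Probe sets were named through Entrez Gene identifiers and a RefSeq gene table of a newer assembly than the array, so genome order but no coordinates is used. After 64 control probe sets were left out, a linear model with group as its only term was fitted to 22746 (R 4.3.3, limma 3.58.1, moderated two-sided test, Benjamini-Hochberg over all probe sets, threshold 0.05). The fit was tested on simulated data. The planted changes there were larger than any difference among the 71 genes, and spreads were shuffled among probe sets. That test therefore does not cover differences of the sizes seen in those genes. SE is limma's moderated error. Medians over genes carry no test. With 3 against 3 arrays an exact permutation test cannot go below p = 0.1.

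The genes named are those past the threshold, in each functional group the largest positive and negative difference and the brightest, and a fixed set. Every other plastid gene named was chosen after its values were seen. The members and lists were chosen with earlier results of these data known. Of 125 nuclear genes listed, 114 had a single-gene probe set. Alternatives covered normalization, filters on dim probe sets, moderation, a replicate block, labelled age and each array left out.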

Additional observations from a re-analysis of the deposited data

Results flagged for a closer look

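The ribosomal protein gene rps12, outside the 71 genes because its probe sets carry both reference entries, gave a signal above the control level. The rps12 messenger is joined from separately transcribed pieces by trans-splicing, and which piece each of its 2 probe sets reads is not given in the files. The dimmer probe set read 7.17, 7.01 and 7.39 on the heat arrays and 5.88, 6.30 and 5.83 on the control arrays. The difference was 1.19 (SE 0.17, limma adjusted p = 0.00625), larger than that of any of the 71 genes, and it passed in each of the 6 fits leaving out an array. The brighter probe set read 9.22, 9.18 and 9.21 on the heat arrays and 8.93, 8.54 and 8.95 on the control arrays, a difference of 0.40 (SE 0.14, adjusted p = 0.15). The other 6 shared probe sets differed by -0.48 (ycf1) to 0.16 (rps7), and none passed.

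The control probe set for 25S ribosomal RNA, an RNA without a poly(A) tail that was left out of all fits, read 9.97, 10.06 and 10.04 on the heat arrays and 8.90, 9.48 and 9.31 on the control arrays. The difference was 0.79, with every heat array above every control array (exact permutation p = 0.1, the smallest that 3 against 3 arrays can give). Such separation was not particular to it. The middle probe sets of the ubiquitin (0.46), GAPDH (0.20) and actin (0.18) controls also read higher on every heat array. So did the actin 5′ (0.29) and ubiquitin 3′ (0.25) probe sets and further ubiquitin probe sets (0.34 and 0.18). Other Arabidopsis control probe sets overlapped, among them actin 3′ (-0.24) and another actin middle probe set (0.0051). Over all tested probe sets 26.3% did not overlap, 10.4% of them all being higher after heat. The 5S ribosomal RNA probe set gave 2.30 ± 0.27 on the heat arrays and 2.29 ± 0.22 on the control arrays.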

How the results depend on the processing

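Over all probe sets 533 rose and 909 fell. The split was 671 and 679 under median centring, 677 and 871 under quantile normalization and 713 and 688 under cyclic loess, and median centring moved the median of all probe sets to 0.0998, against -0.0107 as deposited. It was 129 and 10 with labelled age as a covariate. Labelled age rose with replicate number in both groups, and no age occurred in both. That fit therefore rests on replicate order and cannot separate age from heat. Leaving out each array in turn gave 371 to 1008 that rose and 275 to 2719 that fell. Of the plastid genes 1 rose and 1 fell, and psaA and rbcL kept their signs in every setting run. With the replicate block 0 and 0 passed, and 396 and 410 over all probe sets. Equal replicate numbers did not deviate together (correlations -0.26, -0.24 and -0.24). Those deviations are taken from means of 3 arrays, so they cannot settle whether the replicates were paired. With labelled age 0 and 0 passed. The count that fell was 3 under quantile normalization, 2 and 3 with the filters at the 25th percentile and the median, and 4 with a trend. Each array left out gave 0 to 3 up and 0 to 3 down, and the shared probe sets made it 2 up. In the nuclear lists 1 gene rose under median centring, cyclic loess or the trend and 0 fell with labelled age, with 0 to 3 up and 0 to 2 down over the arrays left out.

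The median over the plastid genes was 0.11 under median centring, 0.14 under cyclic loess and -0.0775 with labelled age (-0.0486 to 0.0617 without 1 array). The atp median was 0.28 and 0.32 under the first pair of settings. The rbcL difference was -0.61 under cyclic loess and -1.06 with age. The PEP median was 0.12 and -0.16 in those settings, and the NEP median 0.0219 with age and 0.0336 with shared probe sets. Signs turned under median centring for atpB (0.0181), atpE (0.0763), psaB (0.0947), rpoC1 (0.0504), rps4 (0.0262), ycf3 (0.0838), SIG5 (0.11), petL (0.0034) and ndhC (0.0743). They turned under cyclic loess for atpB (0.0852), atpE (0.15), psaB (0.14), rpoC1 (0.0848), rps4 (0.0680), ycf3 (0.10), petL (0.0029) and ndhC (0.11). They turned under quantile normalization for clpP (-0.0746), rpoC1 (0.0575), ycf3 (0.0474) and petL (0.0271). With labelled age they turned for clpP (-0.13), psaB (0.0671), rpoB (-0.11), rpoC1 (0.15), rpoC2 (-0.10), SIG2 (0.0305), SIG5 (0.00035), ndhC (0.12) and rps14 (-0.71). Arrays left out moved clpP from -0.0619 to 0.13, psaB from -0.12 to 0.13, rpoA from -0.0223 to 0.14, rpoB from -0.00079 to 0.13, rpoC1 from -0.15 to 0.0413, rps4 from -0.15 to 0.0146, ycf3 from -0.19 to 0.11, RPOTp from -0.36 to 0.0251, SIG5 from -0.14 to 0.14, petL from -0.27 to 0.11, ndhC from -0.11 to 0.0032 and rps14 from -0.0040 to 0.52. The cause was not tested.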
